A study of Mus musculus with 16 samples.

Results

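The 10 genes described here are markers of ependymal cells and parts of the motile cilium: Foxj1, Spef1, Rsph1, Dnah5, Dynlrb2, Tekt1, Ak7, Ccdc153, Tmem212 and Rarres2. They were chosen by symbol, and the set was picked because Spef1 was higher in mice given nicotine and ethanol than in water controls. All 10 were found among the 24062 genes of the count table and the 23991 genes of the FPKM table, and all 10 passed the filter on low counts.

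RNA was sequenced from whole brain including the cerebellum of 16 singly housed female C57BL/6J mice, with 4 mice per group, each library from 1 mouse. Water-Water (WW) mice had water throughout. Nicotine-Water (NW) mice drank 200 µg/ml nicotine for 22 h a day and water in the drinking sessions. Water-Ethanol mice had water and then 20% v/v ethanol over 4 days of drinking-in-the-dark, a limited-access procedure with 2 h sessions and a last session of 4 h. Nicotine-Ethanol (NE) mice received both drugs. All mice were killed at postnatal day 45, at the end of the last session. Library totals ran from 27100352 to 32880979 counted reads, with a median of 29448284. Replicates carry the number in the submitters' sample titles.

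Ependymal cells are the ciliated epithelium that lines the brain ventricles, and the beating of their motile cilia moves cerebrospinal fluid along the ventricular wall. A motile cilium is built on an axoneme, a ring of doublet microtubules around a central pair, in which dynein arms drive the bending and radial spokes carry signals between the central pair and the doublets. The transcription factor FOXJ1, acting together with RFX family factors, switches on the genes for these parts. Because the tissue was whole brain, fewer ependymal cells and less RNA per ependymal cell cannot be told apart in these values.

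Each gene lay at one place in the mm10 (GRCm38) genome, as annotated in the count table, and each is protein coding. Foxj1, the ciliogenesis regulator, is at chr11:116330704-116335354 on the minus strand with 3 exons. Spef1, which encodes a microtubule-binding protein of the central pair, is at chr2:131170261-131174810 on the minus strand with 7 exons. Its nearest neighbours in the table, other than microRNA genes, were 1700037H04Rik at a gap of 10240 bases and Cenpb at a gap of 2478 bases. Rsph1, a radial spoke head protein, is at chr17:31255020-31277356. Dnah5, the heavy chain of the outer dynein arm, is at chr15:28203766-28472045 with 79 exons, and Dynlrb2, a dynein light chain of the roadblock type, is at chr8:116505015-116515915. Tekt1, a tektin of the doublet microtubules, is at chr11:72344717-72362442, and Ak7, an adenylate kinase of motile cilia, is at chr12:105705982-105782447. Ccdc153, a coiled-coil protein used as an ependymal marker, is at chr9:44240677-44247306, with its end 6 bases from the start of Pdzd3. Tmem212, a membrane protein used as an ependymal marker, is at chr3:27866065-27896368. Rarres2, which encodes the secreted protein chemerin, is at chr6:48569698-48572670, and 323 of its 708 exonic bases overlap exons of Lrrc61 on the opposite strand. The study's methods name a stranded library kit and a stranded alignment, while the kit named in the sample labels is not called stranded, and whether reads were counted by strand is not given in the sources used here. For that reason, reads of Rarres2 and Lrrc61 in the shared bases cannot be told apart.

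Promoter sequences of RefSeq on GRCm38.p6, 250 bases before to 50 bases after the transcription start, were held for 7 of the 10 genes. Foxj1, Rsph1 and Rarres2 had none. The sequences were searched on both strands for GTTGCC, a single fixed spelling of the half-site bound by RFX factors, and for TGTTTAC, a forkhead motif. Other spellings were not searched for. These 2 motifs do not overlap each other and were chosen after the sequences had been seen. The 7 genes had 8 promoters in the table, since Tekt1 had 2. GTTGCC occurred in 3 of the 8, those of Dynlrb2, Tekt1 and Ccdc153, against 12.5% of all 32851 promoters. TGTTTAC occurred in 1 of the 8, that of Ak7, against 3.65% of all promoters. Spef1, the gene on which the set was chosen, is shown beside 2 genes that hold GTTGCC. Capitals mark GTTGCC or its reverse complement GGCAAC, and all are written 5′ to 3′ on the gene's strand.
Spef1 promoter, chr2:131174761-131175060, minus strand: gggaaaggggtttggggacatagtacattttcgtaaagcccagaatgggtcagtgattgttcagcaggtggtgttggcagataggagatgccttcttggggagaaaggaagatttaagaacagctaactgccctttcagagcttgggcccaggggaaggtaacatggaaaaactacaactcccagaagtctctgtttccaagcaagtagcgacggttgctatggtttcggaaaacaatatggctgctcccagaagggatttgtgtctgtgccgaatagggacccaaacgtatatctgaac
Dynlrb2 promoter, chr8:116504765-116505064, plus strand: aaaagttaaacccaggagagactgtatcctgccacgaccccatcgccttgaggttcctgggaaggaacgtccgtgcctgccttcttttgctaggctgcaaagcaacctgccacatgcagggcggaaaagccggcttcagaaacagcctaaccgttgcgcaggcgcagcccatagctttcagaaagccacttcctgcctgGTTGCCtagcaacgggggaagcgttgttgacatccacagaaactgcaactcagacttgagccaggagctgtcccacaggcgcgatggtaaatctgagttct
Tekt1 promoter, chr11:72361833-72362132, minus strand: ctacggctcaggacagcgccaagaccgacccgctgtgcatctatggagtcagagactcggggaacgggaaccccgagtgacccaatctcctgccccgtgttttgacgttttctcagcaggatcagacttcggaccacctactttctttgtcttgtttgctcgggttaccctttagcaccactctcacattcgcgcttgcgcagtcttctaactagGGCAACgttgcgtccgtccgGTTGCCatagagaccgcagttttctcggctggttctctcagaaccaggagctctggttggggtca
In Dynlrb2, GTTGCC began 51 bases before the transcription start, and in this Tekt1 promoter 2 copies began 35 and 15 bases before it. A second Tekt1 promoter in the table, chr11:72361247-72361546, held neither motif. The letters GTTGCC were not in the Spef1 window, which does not show that the window lacks other spellings of the half-site.

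Levels between genes were compared as FPKM (fragment counts scaled for transcript length and library size). Averaged over the 16 mice, the order was Rarres2 (8.80 ± 1.03 FPKM, SD, n = 16), Foxj1 (5.49 ± 0.641), Spef1 (4.53 ± 0.731), Rsph1 (3.61 ± 0.476), Dynlrb2 (3.44 ± 0.811), Tmem212 (2.68 ± 0.481), Ccdc153 (2.42 ± 0.227), Tekt1 (1.62 ± 0.413), Ak7 (1.10 ± 0.155) and Dnah5 (0.483 ± 0.0498). Only Rarres2 against Foxj1 and Ak7 against Dnah5 were neighbours whose ranges over the 16 mice did not overlap. Rsph1 was above Dynlrb2 in 11 of 16 mice, and Tmem212 was above Ccdc153 in 11 of 16 mice, so those pairs did not differ beyond their spread. Dnah5, the longest transcript at 15616 exonic bases, had the lowest FPKM and a mean of 220 normalized counts, while Rarres2, at 708 exonic bases, had the highest FPKM and a mean of 138 normalized counts. By mean FPKM, Rarres2 stood above 50.5% of the 15589 genes that passed the count filter and have an FPKM value, and Dnah5 above 8.96%. The 10 genes together took between 0.00446% and 0.00565% of the counted reads of a mouse.

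**Figure D1:**
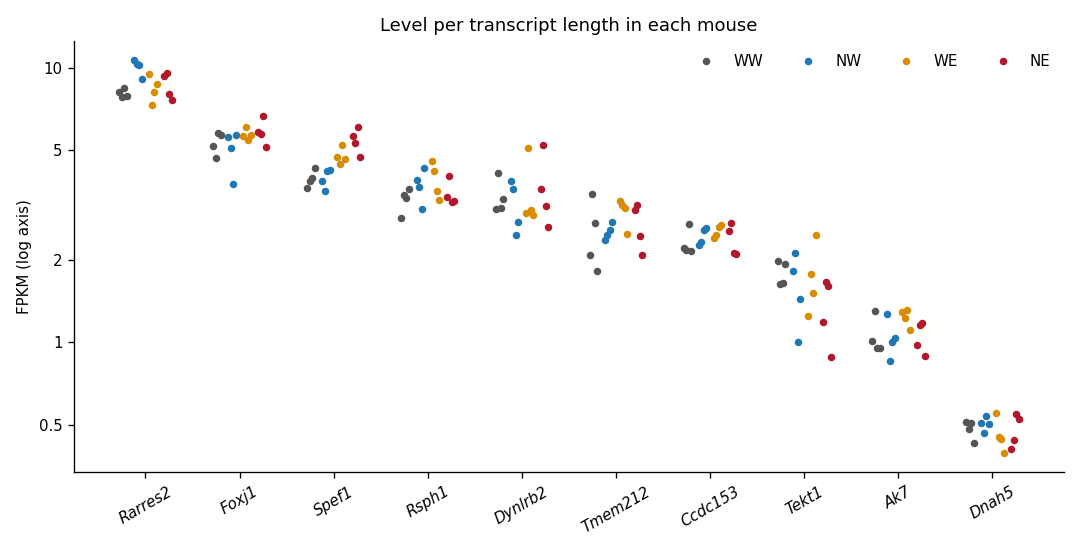
FPKM on a log axis for the 10 genes, ordered by mean, with 1 point per mouse coloured by group (WW, NW, Water-Ethanol and NE from left to right). Rarres2 lies above the other genes, between 7.33 and 10.6 FPKM, and Dnah5 below them, between 0.396 and 0.555 FPKM, while most neighbours in between overlap.

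The low levels set how closely a difference could be seen. Raw counts ran from 24 to 51 reads for Dynlrb2, from 30 to 60 for Tmem212 and from 33 to 86 for Tekt1, against 265 to 494 for Foxj1 and 234 to 419 for Spef1. Counting error by itself gives a coefficient of variation of 16.8% for Dynlrb2 and 5.72% for Spef1, where the spread between mice of a group was 22.96% and 8.51%. Tekt1 had the widest spread within groups, 25.02%, against 12.9% from counting. For Rarres2 and Ccdc153, the spread within groups, 7.60% and 10.7%, was no wider than the counting error, 8.51% and 11.5%. These counting errors cover the sampling of reads only.

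Some libraries stood apart in marker genes of brain regions and nasal tissue. Gabra6, a receptor subunit of cerebellar granule cells, was lowest in WW replicate 21 (1069 normalized counts) and NW replicate 10 (1651), and lay between 3418 and 4497 in the other 14 mice. NW replicate 10 also had the most counts of 7 pituitary genes, with a sum of 418.5 normalized counts, and the lowest sum of 13 choroid plexus genes, 15810. Cyp2g1, an enzyme of the olfactory mucosa, reached 146 normalized counts in WW replicate 20, while no other mouse exceeded 32.9. The part of these differences in the results was not tested, and values without these mice are given for some results only.

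Spef1 was higher in both groups that drank ethanol. Its normalized counts (read counts scaled by TMM, a correction for library size and composition) were 253, 273, 256 and 280 in WW mice and 254, 235, 300 and 286 in NW mice. Water-Ethanol mice had 318, 298, 354 and 322, and NE mice had 381, 363, 399 and 320. All 4 NE and all 4 Water-Ethanol mice were above all 4 WW mice. NE also did not overlap NW, and 3 of 4 Water-Ethanol mice were above all NW mice, since NW replicate 10 was above Water-Ethanol replicate 14. Group means were 265 ± 13.1 (SD, n = 4) in WW, 269 ± 29.5 for NW mice, 323 ± 23.1 for Water-Ethanol mice and 366 ± 33.6 for NE mice.

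The log2 fold change of Spef1 from WW was 0.02 (SE 0.0915) for NW mice, 0.29 (SE 0.0732) for Water-Ethanol mice and 0.47 (SE 0.0800) for NE mice. These 3 comparisons share the same WW mice. The NE value was used to choose the genes and the Water-Ethanol and NW values share its controls, so all 3 are given as a description with no p. In FPKM the ratios of group means were 0.01, 0.27 and 0.46 on the log2 scale. Water-Ethanol against NW uses neither the WW nor the NE mice, and there Spef1 differed by 54.1 normalized counts, with a two-sided exact permutation p of 0.0571 over 70 assignments. The smallest p that 4 against 4 mice allow is 0.0286. edgeR's quasi-likelihood test gave a log2 difference of 0.27 (SE 0.0907) with a Benjamini-Hochberg adjusted p of 0.183 over all genes. Without NW replicate 10, the mouse with pituitary genes and few cerebellar counts, the difference was 64.4 normalized counts and the 2 groups no longer overlapped. The exact permutation p was 0.0286 over 35 assignments, the smallest that 4 against 3 mice allow. NW replicate 10 had the highest Spef1 count of the NW mice and alone lay above a Water-Ethanol mouse. Leaving it out was therefore bound to separate the groups, and this p adds no support. Leaving out each of the other 7 mice in turn gave differences of 42.8 to 62.3 normalized counts, with exact permutation p of 0.0571 to 0.0857. These 8 values were added after the data had been examined.

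The genes on either side of Spef1 are given as a description. Spef1 was picked for its NE value and its neighbours were not, so their smaller differences cannot show whether the change was local to Spef1. Cenpb, which encodes a centromere protein, had means of 3362 ± 63.8 (SD, n = 4) normalized counts in WW and 3514 ± 170 in NE, a log2 difference of 0.07 (SE 0.0390) with an edgeR adjusted p of 0.414. For 1700037H04Rik the log2 difference between NE and WW was 0.09 (SE 0.0784), with an edgeR adjusted p of 0.614.

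**Figure D2:**
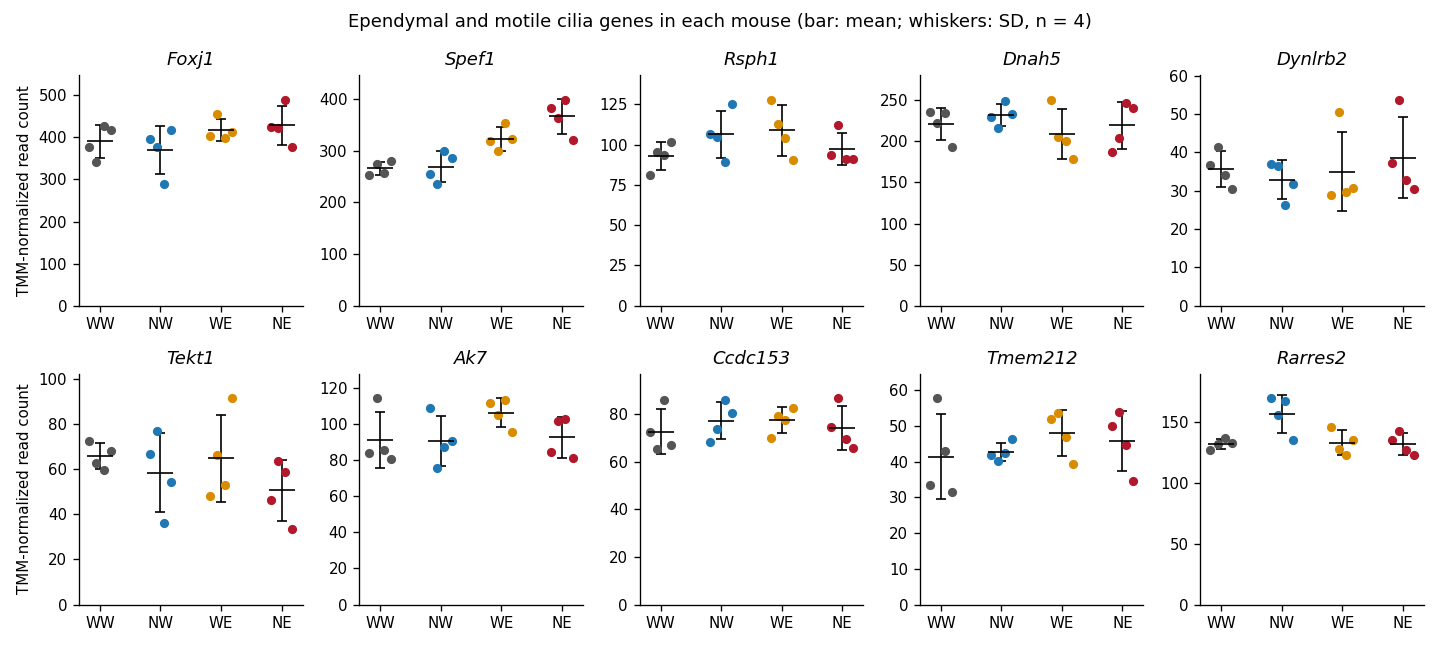
TMM-normalized read count of each gene in each mouse, by group, with the mean as a bar and the SD over 4 mice as whiskers. The Spef1 panel shows all Water-Ethanol and NE mice (298 to 399) above all WW mice (253 to 280), and in the other 9 panels the WW points overlap those of every other group.

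Across all genes tested, edgeR's quasi-likelihood test at an adjusted p under 0.05 called 0% of 15344 genes in NW against WW, 0.457% of 15323 genes in Water-Ethanol against WW and 0.313% of 15313 genes in NE against WW. The numbers of members called in the 3 comparisons were 0, 0 and 1, and the 1 was Spef1 in NE, the comparison that chose the genes. DESeq2 called 0, 1 and 1 of the members, with Spef1 as the one called for Water-Ethanol and for NE. However, DESeq2 gave no adjusted p for Rsph1, Dynlrb2, Tekt1, Ak7, Ccdc153 and Tmem212 in any of the 3 comparisons. Rarres2 had none in Water-Ethanol and NE. Genes without an adjusted p could not be called. The edgeR call of Spef1 in NE was kept without WW replicate 21 or NE replicate 5. It was lost when any of WW replicates 18, 19 and 20 or NE replicates 2, 3 and 4 was left out. Without WW replicate 21, Spef1 was also called for Water-Ethanol. All of these calls of Spef1 against WW use the values or the controls that chose the set, and are given as a description only. In NE against Water-Ethanol, NE against NW, Water-Ethanol against NW and the nicotine-by-ethanol interaction, 0%, 0%, 0% and 0% of all genes were called by edgeR, and no member was called. At an unadjusted p under 0.05, the members that passed were 1, 2, 1 and 0 of 10 in these 4 tests, beside 5.8%, 11.9%, 17% and 6.76% of all genes. Spef1 was in each of the first 3 counts, of which NE against Water-Ethanol and NE against NW reuse the NE mice that chose the set. DESeq2 called 2, 92, 405 and 1 of all genes, and 0, 1, 0 and 0 of the members, the 1 being Spef1 in NE against NW. It gave an adjusted p to 19828, 14513, 12975 and 20419 genes, and the members among them were not counted. With all 16 mice in one edgeR fit, 0 genes were called in NE against Water-Ethanol, 57 in NE against NW (Spef1 among them) and 262 in Water-Ethanol against NW (no member). In the edgeR fit of the Water-Ethanol and NW mice alone, leaving out NW replicate 10 moved the count from 0 to 173 genes, with no member. Counted by range instead, normalized counts of the 2 groups did not overlap for 5.98% of genes in NW against WW, 10.8% in Water-Ethanol against WW and 10.7% in NE against WW. The members with no overlap were 0, 1 and 1, again Spef1.

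The other 9 members overlapped between WW and each of the other groups. Their sum ran from 1119 to 1200 normalized counts in WW, 1071 to 1224 in NW, 1146 to 1256 in Water-Ethanol and 1076 to 1263 in NE, so that all 4 groups overlapped. The median log2 fold change of the 10 members from WW was 0.03 for NW mice, 0.10 for Water-Ethanol mice and 0.04 for NE mice, beside medians over all genes tested of 0.01, 0.00 and 0.00. Without Spef1, 5, 6 and 7 of the 9 log2 fold changes were above 0, beside 53.6%, 50.6% and 51.4% of all genes tested, with medians of 0.04, 0.09 and 0.03.

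Foxj1, the transcription factor that sets up motile cilia, had 377, 341, 426 and 417 normalized counts in WW mice and 396, 376, 289 and 417 in NW mice. Water-Ethanol mice had 404, 455, 399 and 414, and NE mice had 425, 421, 490 and 377. All groups overlapped, and the lowest value was NW replicate 10. The log2 fold change from WW was -0.08 (SE 0.111) in NW and 0.10 (SE 0.0790, edgeR adjusted p = 0.499) in Water-Ethanol, and it was 0.14 (SE 0.0919) in NE. Without NW replicate 10 the NW value was 0.01.

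The radial spoke gene Rsph1 had 81.0, 95.2, 93.8 and 102 normalized counts in WW mice, 106, 105, 89.4 and 125 in NW mice, 128, 113, 104 and 90.2 in Water-Ethanol mice, and 93.8, 112, 91.2 and 91.2 in NE mice. In NW and in Water-Ethanol, 3 of 4 mice were above all WW mice. The log2 fold changes were 0.19 (SE 0.128, edgeR adjusted p = 0.706) in NW and 0.23 (SE 0.128, edgeR adjusted p = 0.335) in Water-Ethanol, with exact permutation p of 0.200 and 0.171. The interaction term was -0.37 (SE 0.179), with an edgeR adjusted p of 0.740.

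The dynein genes overlapped between all groups. Dnah5 had group means of 221 ± 19.9 (SD, n = 4) normalized counts in WW, 232 ± 13.04 for NW mice, 209 ± 30.5 for Water-Ethanol mice and 220 ± 28.5 for NE mice, and its log2 fold changes lay between -0.08 and 0.07. Dynlrb2 had means of 35.7 ± 4.595, 32.8 ± 5.05, 34.97 ± 10.4 and 38.6 ± 10.5 in the same order. Exact permutation p of Dnah5 and Dynlrb2 in the 5 comparisons other than NE against WW were 0.257 or more.

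Tekt1, the tektin, had 72.4, 62.5, 59.6 and 68.1 normalized counts in WW mice and 46.4, 63.6, 58.5 and 33.5 in NE mice. Here 3 of 4 NE mice were below all WW mice, and the log2 fold change was -0.38 (SE 0.184), opposite in sign to that of Spef1. NW mice had 66.5, 76.7, 36.0 and 54.3, with the lowest again in NW replicate 10, and Water-Ethanol mice had 48.0, 66.4, 53.1 and 91.3. Tekt1 differed between NE and Water-Ethanol by -0.36 on the log2 scale (SE 0.226, edgeR adjusted p = 0.836), with an exact permutation p of 0.314.

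Ak7 was 84.2, 114, 86.0 and 80.7 normalized counts in WW mice and 112, 105, 113 and 95.5 in Water-Ethanol mice, a log2 fold change of 0.22 (SE 0.130, edgeR adjusted p = 0.368). No Water-Ethanol mouse was above WW replicate 19. In NW and NE the log2 fold changes of Ak7 were -0.01 (SE 0.153) and 0.02 (SE 0.142).

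The markers Ccdc153 and Tmem212 also overlapped between groups. Ccdc153 ranged from 65.4 to 86.0 normalized counts in WW, 68.4 to 86.1 in NW, 69.95 to 82.8 in Water-Ethanol and 65.9 to 86.6 in NE. Tmem212 ranged from 31.4 to 57.7 in WW, 40.3 to 46.2 in NW, 39.3 to 53.5 in Water-Ethanol and 34.5 to 53.7 in NE.

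Rarres2, the chemerin gene, had its highest mean in NW, 156.5 ± 15.6 (SD, n = 4) normalized counts. It had 126, 132, 137 and 132 normalized counts in WW mice and 169, 155, 167 and 135 in NW mice. Water-Ethanol mice had 146, 128, 122 and 135, and NE mice had 135, 143, 127 and 123. In NW, 3 of 4 mice were above all WW mice and above all Water-Ethanol and NE mice, and NW replicate 11 overlapped them. The log2 fold change of NW from WW was 0.24 (SE 0.101), with an edgeR adjusted p of 0.550 and an exact permutation p of 0.0571. Against NW, the NE value was -0.25 (SE 0.106, edgeR adjusted p = 0.389). For Lrrc61, whose exons overlap those of Rarres2, the log2 fold change of NW from WW was 0.02 (SE 0.0561, edgeR adjusted p = 0.946).

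**Figure D3:**
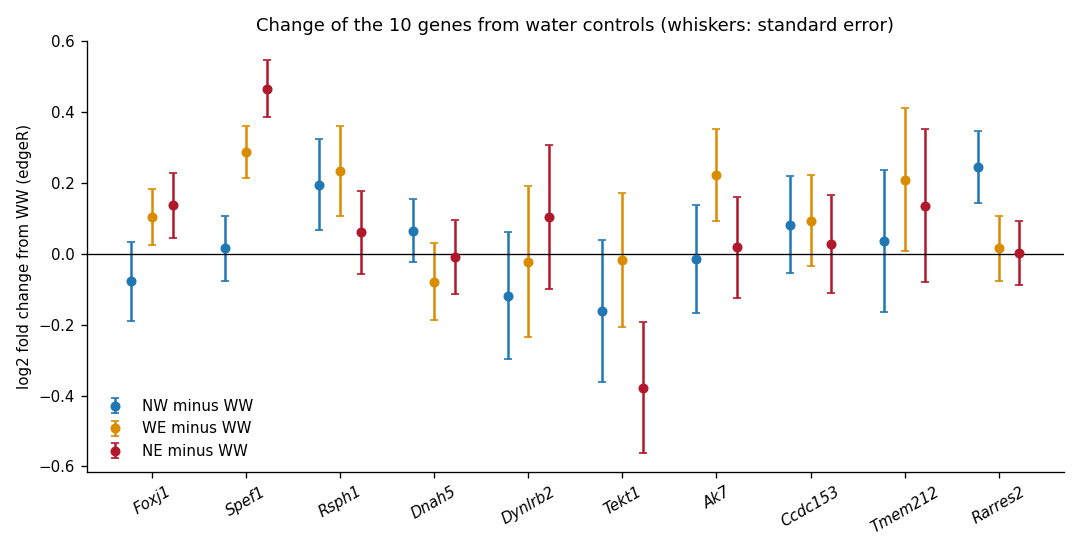
The edgeR log2 fold change of each gene from WW in NW, Water-Ethanol and NE mice, with whiskers of 1 standard error. Spef1 has the highest point in NE, 0.47, Tekt1 the lowest in NE, -0.38, and Rarres2 is at 0.24 for NW mice, 0.02 for Water-Ethanol mice and 0.00 for NE mice.

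Other genes of the motile cilium were taken as a list of 96, of which 87 were in the count table and 83 were tested in each comparison with WW. Against WW, edgeR called 0 of the 83 for each of the 3 other groups, and 3, 5 and 3 passed an unadjusted p under 0.05, against 8.44%, 19.3% and 17.5% of all genes tested. DESeq2 called 0, 1 and 0 of them, the 1 being Spag1, a dynein assembly factor, named after its value was seen. DESeq2 gave an adjusted p to 12257, 11874 and 11888 of all genes, and how many of the list were among them was not counted. The median log2 fold change of the list was 0.01, 0.04 and 0.01, with single genes between -0.60 and 0.63 in NE. By role, the 11 radial spoke and central pair genes tested had a median of 0.02 for NW, of -0.02 for Water-Ethanol mice and of -0.01 for NE, with a highest NE value of 0.08. The 8 ciliogenesis regulators tested had medians of -0.08, 0.22 and 0.11. Of the 8, 6 were above 0 in Water-Ethanol and 6 in NE, beside 50.6% and 51.4% of all genes. In both groups 5 of the 8 were above 0, and the share of all genes above 0 in both was not computed. The 9 genes of the outer dynein arm and its docking complex had medians of 0.01, 0.09 and 0.00.

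**Figure D4:**
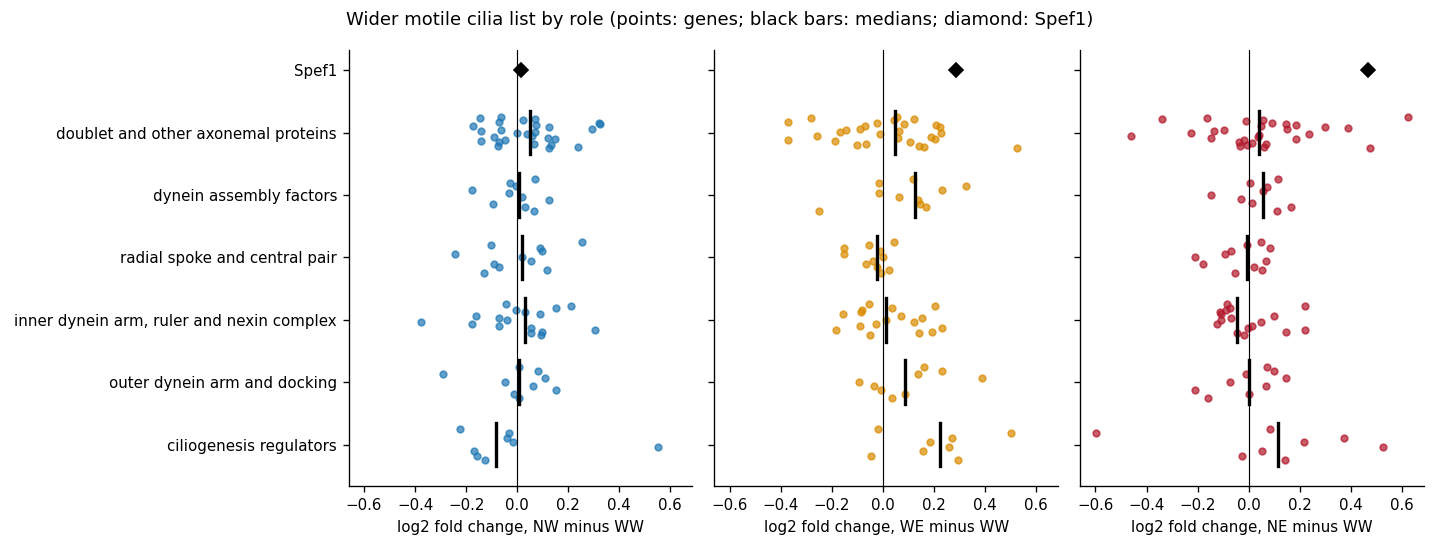
The edgeR log2 fold changes from WW of the tested genes of the wider motile cilia list, 1 point per gene, grouped by role, in NW, Water-Ethanol and NE mice, with medians as black bars and Spef1 as a diamond. The radial spoke and central pair genes lie between -0.21 and 0.08 in NE, below the 0.47 of Spef1, the gene on which the set was chosen.

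Correlations between the 10 genes were computed from mouse to mouse. Over the 16 mice, after the group means of log2 CPM (counts scaled to library size) were removed, the 45 pairs had a median Pearson's r of 0.07, with 30 of 45 above 0 and a range from -0.53 to 0.66. No pair passed a Benjamini-Hochberg adjusted permutation p under 0.05 over the 45, for Pearson's r or Spearman's rho, and 2 pairs had an unadjusted p under 0.05 for Pearson's r. The highest was Ak7 with Tmem212, with r = 0.66 (permutation p = 0.0124, adjusted p = 0.559) and rho = 0.60 (permutation p = 0.0293, adjusted p = 0.8293), and r = 0.61 without the 2 mice farthest from the median of Ak7. The lowest was Dnah5 with Tekt1, with r = -0.53 (permutation p = 0.0657, adjusted p = 0.649) and rho = -0.46 (permutation p = 0.125, adjusted p = 0.884), and r = -0.55 without the 2 farthest mice. Spef1 had a median r of -0.06 with the other 9 genes and was above 0 with 3 of them, but on the log2(FPKM + 1) scale the median was 0.03 with 6 of 9 above 0, and without the 2 farthest mice 1 of 9 was above 0. The sign of the median thus turned with the scale. With Foxj1, Spef1 had r = -0.08 (permutation p = 0.837, adjusted p = 0.997) and rho = -0.09 (permutation p = 0.791, adjusted p = 1.00), and r = 0.09 without the 2 mice farthest from the median of Foxj1. On the log2(FPKM + 1) scale that r was 0.22. In every pair, the 2 mice left out were those farthest from the median of the gene that comes first in the opening list. Extreme values of the other gene stayed in. Without those mice, the median r of the 45 pairs was 0.00 and 22 were above 0. Counting error is a large part of the spread of the low genes, and its part in these correlations was not tested.

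**Figure D5:**
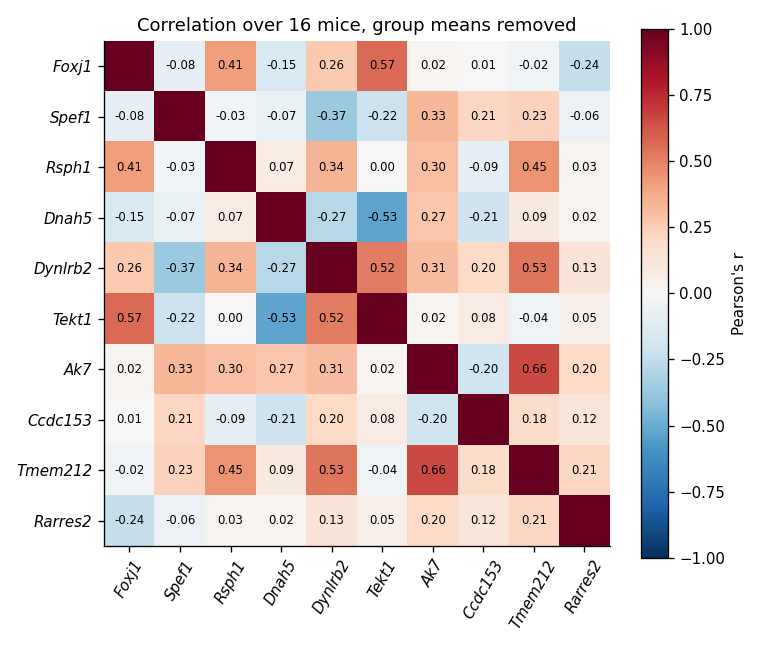
Pearson's r for each pair of the 10 genes over 16 mice, from log2 CPM (counts scaled to library size) with group means removed, coloured from -1 to 1. The highest cell is Ak7 with Tmem212 at 0.66, the lowest is Dnah5 with Tekt1 at -0.53, and the Spef1 row runs from -0.37 to 0.33.

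Among 15582 other genes, those whose values followed the mean of the 10 members most closely were Comp, Crabp2, Rrad, Rrp8, Gab3, Cdhr3, Srpx2, Wisp2, Map2k3os and Mfsd9, with r between 0.77 and 0.84 over the 16 mice. Cdhr3 was the only one of these 10 on the wider motile cilia list, with r = 0.81. The 85 tested genes of that list had a median r of 0.05 with the mean of the members, beside 0.00 for all genes. These values come from the same libraries as the members and are given as a description.

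Markers of neighbouring tissues were counted beside the members. The 13 choroid plexus genes summed to 18600 to 23560 normalized counts in WW, 15810 to 25260 in NW, 20170 to 24150 in Water-Ethanol and 20500 to 23400 in NE, and none was at 0 in any mouse. Of the 13, 1 was called, Kcnj13, a potassium channel of the choroid plexus epithelium. Its log2 fold changes were 0.63 in Water-Ethanol (edgeR adjusted p = 0.0357) and 0.54 in NE (edgeR adjusted p = 0.0372). Of all genes, 0.457% and 0.313% were called there. With WW replicate 19 or 20, or Water-Ethanol replicate 13 or 15, left out alone, edgeR called no gene for Water-Ethanol, so Kcnj13 was not called. The same held for NE without NE replicate 4. The list was chosen with earlier results known. Over the 13, 6, 7 and 7 log2 fold changes were above 0 in NW, Water-Ethanol and NE, with medians of -0.03, 0.01 and 0.00. The 11 genes of meninges and fibroblasts summed to 7224 to 10350 in WW and 6868 to 7385 in NE, with 10 of 11 log2 fold changes below 0 in NE and 0 called, and 8 of 11 under an unadjusted p of 0.05. Over all genes tested in NE against WW, 51.4% were above 0 and 17.5% were under an unadjusted p of 0.05. These shares are the background for each list in NE. The 10 cerebellar genes summed to 14110 to 42580 in WW and 36750 to 40220 in NE, and the lowest mouse was WW replicate 21. All 10 cerebellar log2 fold changes were above 0 in both ethanol groups, and 0 were called. Their medians were 0.02 for NW, 0.24 for Water-Ethanol and 0.19 for NE. Over the 16 mice, with group means removed, the mean of the cerebellar genes had an r of -0.42 with Spef1, for which no p was computed. Astrocyte genes, 9 in number, summed to 188200 to 204400 in WW and 179500 to 190800 in NE, with all 9 log2 fold changes below 0 in NE and 0 called, and 3 under an unadjusted p of 0.05. In NE, 1 of 6 tested nasal epithelium genes was above 0 (median -0.65, 2 under an unadjusted p of 0.05), 0 of 10 genes of the subventricular zone and olfactory bulb (median -0.14, 2 under 0.05) and 4 of 10 striatal genes (median -0.04, 0 under 0.05), with 0 called in each list, and of the 7 pituitary genes 0 passed the filter. The medians in NW and Water-Ethanol were -0.80 and -0.72 for nasal epithelium and -0.20 and -0.18 for the subventricular zone and olfactory bulb. They were 0.05 and -0.07 for striatum, -0.03 and -0.17 for meninges and fibroblasts, and -0.03 and -0.07 for astrocytes. In NE the last 2 lists had medians of -0.27 and -0.08. All of these comparisons share the same WW mice. The part of tissue makeup in the values of Spef1 was not tested. Without WW replicate 21, the mean of Spef1 in WW was 261 ± 10.9 (SD, n = 3) normalized counts.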

How the data were processed

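Counts and FPKM values were deposited by the authors, who trimmed reads with Trimmomatic 0.32, aligned them to mm10 with TopHat2 and computed FPKM with Cufflinks and Cuffdiff. The counter behind the deposited read counts is not given in the sources used here. The 10 members and all gene lists were chosen with earlier results of these data known. Counts were filtered (filterByExpr), TMM-normalized and tested with edgeR 4.0.16 in R 4.3.3 by quasi-likelihood, on the 8 mice compared or, for the interaction, all 16, with Benjamini-Hochberg adjustment over all genes and a threshold of 0.05. Alternatives used DESeq2 1.42.0, limma 3.58.1 on log2 FPKM, other filters and factors, each mouse left out, and a GC correction (lowess, 94.4% of genes with a GC value) added after the data were examined. Exact permutation tests were two-sided, and correlations used 100000 permutations within groups. By rule, genes named were the 10 members, called genes of the lists and the 10 genes most like the members' mean. Outside the rule, neighbouring or overlapping genes (Cenpb, 1700037H04Rik, Lrrc61, Pdzd3), markers of the mice that stood apart (Gabra6, Cyp2g1) and Spag1 were named after the data were examined. Authors' comparisons were not used.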

Additional observations from a re-analysis of the deposited data

Results flagged for a closer look

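In 40 groups of 4 mice (10 genes, 4 groups each), 3 had a mouse far from the other 3 by Dixon's test, where chance gives about 1 in 20, or 2. Rsph1 was at 111.86 normalized counts in NE replicate 3, above the next NE mouse at 93.8. Dynlrb2 was at 50.54 in Water-Ethanol replicate 14, above the next at 30.8, on 51 raw reads. Ak7 was at 114.41 in WW replicate 19, above the next at 86.0. No explanation was tested for these mice.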

How the results depend on the processing

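The count of members called for Water-Ethanol against WW was 1 with DESeq2 and 0 to 1 with single mice left out. For NE against WW it was 0 with limma on log2(FPKM + 1), 0 on log2(FPKM + 0.1), 0 with the GC correction chosen after seeing the data, and 0 to 1 with single mice left out. For NE against NW it was 1 with DESeq2 and 1 with all 16 mice in one fit. In the other 4 comparisons no alternative called a member. The number of all genes called for Water-Ethanol against WW was 70, 605 with DESeq2, 143 with no filter, 43 with the GC correction, 28 with all 16 mice in one fit, 0 with both limma settings and 0 to 797 with single mice left out, with 797 without WW replicate 21, 84 without WW replicate 18 and 0 or 1 without any other mouse. For NE against WW it was 48, 508 with DESeq2, 18 with both limma settings, 13 with the GC correction and 0 to 283 with single mice left out, with 283 without WW replicate 21, 11 without NE replicate 5 and at most 4 without any other mouse. In comparisons with 0 genes called, DESeq2 called 121 and the fit of all 16 mice 112 for NW against WW, and for Water-Ethanol against NW the count was 42 with no filter and 102 without NW replicate 11. The cause of these changes was not tested.

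Log2 fold changes from WW near 0 changed sign. For NW, Spef1 was -0.0284 with the GC correction. For Water-Ethanol, Dynlrb2 was 0.0107 and 0.008 on log2(FPKM + 1) and log2(FPKM + 0.1). For NE, Rarres2 was -2e-04 with DESeq2, -0.0015 with no filter, -0.0193 with the GC correction and -8e-04 with 16 mice in one fit, Ak7 was -0.0034 and -0.0053 on the 2 FPKM scales, and Dnah5 was 0.0196 with the GC correction. With single mice left out, NW values ran from -0.1415 to 0.0109 for Foxj1, -0.0491 to 0.0765 for Spef1, -0.1168 to 0.1174 for Ak7 and -0.0733 to 0.243 for Tmem212. Water-Ethanol values ran from -0.2577 to 0.0586 for Dynlrb2, -0.2264 to 0.1005 for Tekt1 and -0.0346 to 0.0504 for Rarres2. NE values ran from -0.0107 to 0.1041 for Rsph1, -0.0718 to 0.0601 for Dnah5, -0.086 to 0.1981 for Dynlrb2, -0.0392 to 0.1477 for Ak7, -0.0508 to 0.1215 for Ccdc153 and -0.0365 to 0.032 for Rarres2. The Spef1 log2 fold change in NE stayed between 0.38 and 0.52 over 15 alternatives. The median correlation of the pairs was -0.0025 without the 2 mice farthest from the median of the first gene of each pair. No paired analysis was possible because the groups share no replicate numbers. Counts under 100 reads limit Dynlrb2, Tmem212, Tekt1 and Ccdc153 most.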
